A study of Rattus norvegicus with 4 samples.

Results

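Gas7, the F-BAR gene whose counts fell to 0 in both Sox10-deficient clones of the rat cell line OLN93, was examined together with 9 other genes of the F-BAR family. Gas7 was chosen by its counts in these same 4 libraries, whereas Fnbp1, Fnbp1l, Trip10, Srgap1, Srgap2, Srgap3, Pacsin2, Pacsin3 and Fcho2 were set beside it because they encode proteins of the same fold. All 10 genes were found by symbol among the 17327 symbols of the deposited counts. OLN93 cells are immortalized rat cells of the oligodendroglial lineage that were grown in medium with serum. Control cells were Sox10-positive (n = 2), and the Sox10-deficient cells were clones A and B (n = 2), in which Sox10 had been inactivated by CRISPR/Cas9 with a different guide RNA for each clone. The libraries were made from total RNA with a stranded mRNA kit and hold between 60951 and 104017 deposited counts each. This is a small part of the sequencing depth given in the study's methods, and the sources used here do not say why, so that depth here means the number of deposited counts. Each Sox10-deficient library stands for a single clone, so that the loss of Sox10 and other differences between the edited clones and the controls cannot be told apart. The labels call the control libraries biological replicates and the study's methods call them control clones. The p-values therefore measure the spread between the libraries of each group. For the Sox10-deficient cells this is a spread between single clones, and for the controls it is not settled whether it is one.

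F-BAR proteins form crescent-shaped dimers that bind the inner face of membranes through acidic lipids and bend them. Most of them also carry SH3 domains, which bring dynamin, N-WASP or other regulators of actin to the bent membrane, so that the family acts in endocytosis and in the formation of cell protrusions. Oligodendroglial cells extend many processes and later wrap axons, and both steps depend on remodelling of membrane and actin. Gas7, named after its expression in growth-arrested cells, has a WW domain in addition to its F-BAR domain, is abundant in brain and is known for its role in the outgrowth of neurites.

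Sox10, the targeted gene, had 28 and 64 counts in controls 1 and 2, 0 for clone A and 14 for clone B. Clone B thus kept 29.7% of the mean control level of Sox10 RNA. RNA counts do not measure Sox10 protein or its function, so that a remainder of RNA does not show a remainder of Sox10 activity. Of 12 oligodendroglial marker genes, 9 exceeded 3 counts in at least 1 library, among them Cnp, Pdgfra, Cspg4 and Nkx2-2. Mag was at 0 counts in all 4 libraries, and Mbp had no more than 2 counts in any library. The summed level of this list, which holds Sox10 itself, was 3000 and 2650 counts per M (CPM, normalized by edgeR's TMM factors) in the controls and 1860 and 1700 CPM in clones A and B. Its genes differed in direction. Sox10 fell from a mean of 535 to 79.4 CPM and Cnp from 827 to 316 CPM (edgeR's quasi-likelihood test, adjusted p = 0.0172 and 0.0331), whereas the means were 369 and 429 CPM for Pdgfra and 279 and 539 CPM for Cspg4, with neither called (adjusted p = 0.860 and 0.196 by the same test). Mog and Olig2, which are both among the 9 genes and in the sums, had 54 and 7 counts in all where the authors' mean normalized count is 0. These counts cannot be read as expression of either gene. Nkx2-2 had 115 counts in all where the authors' mean is 1480, more than most genes have for their authors' mean, so that its level is uncertain. For Schwann cell and neural crest markers, which include Ngfr and of which 5 of 6 listed genes exceeded 3 counts, the sums were 1190 and 1420 CPM in the controls against 520 and 306 CPM in the clones, with Cdh19 at 0 counts throughout. These genes did not all change. Ngfr fell from a mean of 597 to 0 CPM, whereas the means of Tfap2a were 211 and 212 CPM. For Pmp22 the means were 383 and 178 CPM, and it was not called (adjusted p = 0.245 by edgeR's quasi-likelihood test). Fibroblast markers summed to 369 and 397 CPM against 324 and 136 CPM, and 2 of the 5 genes exceeded 3 counts, with Col1a2, Dcn and Lum at 0 counts. Microglial markers summed to between 45.4 and 136 CPM, with Csf1r as the 1 gene of 5 above 3 counts and Ptprc, Itgam and Cx3cr1 at 0. Csf1r had 26 counts in all where the authors' mean is 13, far more than most genes have for their authors' mean, and cannot be read as expression either. Astrocyte and neuronal markers did not exceed 45.4 and 19.4 CPM in any library, with Aqp4, Aldh1l1, Slc1a2, Slc1a3, Rbfox3, Syt1 and Stmn2 at 0. The part of these differences in the results below was not tested.

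Gas7, listed as ENSRNOG00000049361, had 56 counts in control 1 and 108 counts in control 2. In both clones its count was 0. The controls and clones therefore did not overlap, and the controls differed from each other by 1.16 times after normalization. The control level was 972 ± 103 CPM (SD, n = 2). With a gene taken to lie at the floor when it has 3 counts or fewer, a floor that covers counting error only, the clones allow levels of up to 34.7 CPM in clone A and 34.0 CPM in clone B. These are 3.57% and 3.50% of the mean control level. The mean control level over the mean clone floor gives a limit of 28.3-fold for the decrease of Gas7, without allowance for the spread between controls. Against the same floor, control 1 alone gave a limit of 26.2-fold and control 2 alone a limit of 30.4-fold. No test is given for this difference, because the counts that show it also chose the gene. In these bulk samples, fewer cells that express Gas7 and less Gas7 RNA per cell cannot be told apart. Clone B, in which Gas7 lay at 0, still had the 14 counts of Sox10 RNA. In the rat assembly GRCr8, no annotated gene overlaps Gas7 or lies within 5 kb of it.

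**Figure D1:**
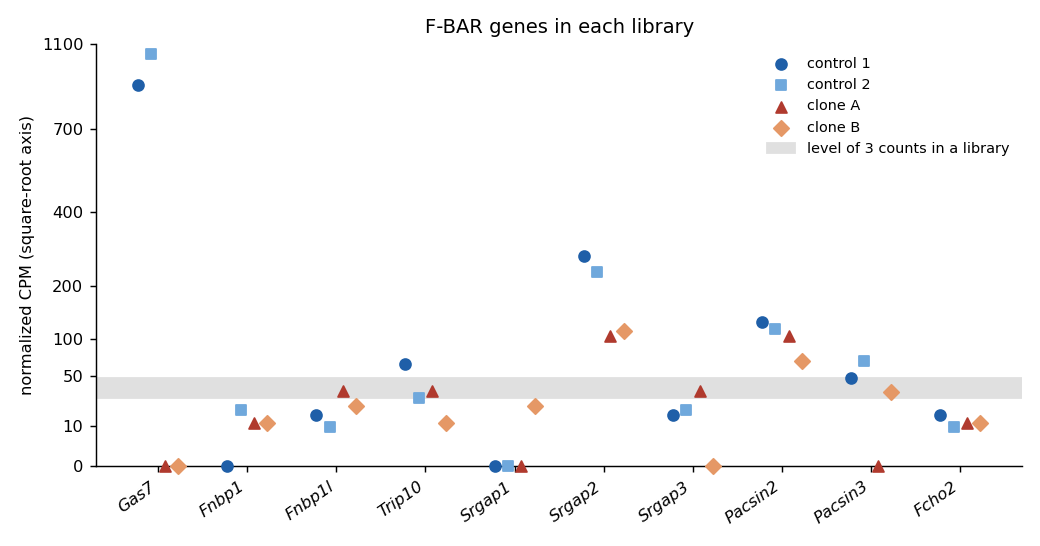
Normalized CPM of the 10 F-BAR genes in each of the 4 libraries, on a square-root axis, with the range of levels that correspond to 3 counts in a library shaded. Gas7 stood near 972 CPM in the controls and at 0 in both clones, and Srgap2 and Pacsin2 were above the shaded range in all libraries. Pacsin3 in control 2 (67.8 CPM) and Trip10 in control 1 (64.2 CPM) were also above it. All other values lay within it or below it.

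Gas7 was not the sole gene with this pattern. Of 3407 genes with more than 3 counts in each control, 21 were at 0 counts in both clones. Gas7 had the most control counts of these 21 genes, followed by Ngfr with 37 and 62 counts. By the distance of their log2(CPM + 10) values over the 4 libraries from those of Gas7, the nearest tested genes were Ngfr, which encodes the p75 neurotrophin receptor, at 0.99, Slc35f1 at 2.40, Calcb, which encodes a calcitonin gene-related peptide, at 2.44, Rassf4 at 2.80 and the teneurin gene Tenm3 at 2.93. Slc35f1 had 20 and 28 control counts and Calcb 24 and 24, and both were at 0 in the clones. Rassf4 had 21 and 43 counts in the controls against 2 for clone A and 1 for clone B. Tenm3 had 47 and 53 counts in the control libraries, 0 for clone A and 5 for clone B. The distance includes the level, so that it favours genes with a similar number of counts, and 4 libraries allow no test of such a likeness.

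**Figure D2:**
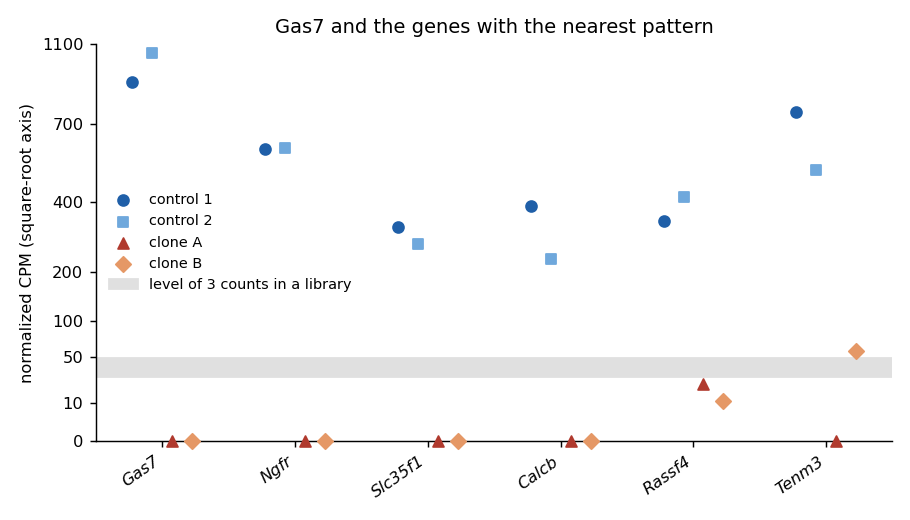
Normalized CPM of Gas7 and of the 5 genes with the nearest pattern in each library, on a square-root axis, with the levels that correspond to 3 counts shaded. In clones A and B all 6 genes lay at 0 or within or below the shaded range, apart from Tenm3 in clone B with 56.7 CPM.

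The other F-BAR genes had far fewer counts. Over the 4 libraries together, Gas7 had 164 counts, which was 53.6% of all counts of the 10 genes. Next came Srgap2 with 60, Pacsin2 with 35, Pacsin3 with 13 and Trip10 with 11 counts. The remaining 5 genes had no library above 3 counts. These are numbers of reads and were not divided by transcript length, so that they do not rank the genes by abundance. A fall to the floor in both clones could be seen for 3 of the 10 genes, those with more than 3 counts in each control. If their clones had been at the floor, the limit would have been 7.36-fold for Srgap2 and 3.55-fold for Pacsin2. Srgap2 and Pacsin2 were also the members other than Gas7 that had enough counts for edgeR's test, in which 2438 genes were compared.

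Fnbp1, Fnbp1l and Trip10 encode FBP17, Toca-1 and CIP4, which bind Cdc42 and N-WASP and link actin assembly to endocytosis. Fnbp1 had 0 and 2 counts in controls 1 and 2 and 1 count in each clone. Fnbp1l had 1 count in each control, 3 for clone A and 2 for clone B. For both genes all libraries lay at or under the floor, and no difference was detectable at this depth. Trip10 had 4 and 3 counts in the controls against 3 for clone A and 1 for clone B. Its pooled counts gave a ratio of clones to controls of 0.542 (95% exact interval 0.116 to 2.13, from the Clopper-Pearson method). This interval covers counting error alone, as do those that follow, and it includes both a large decrease and an increase.

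Srgap1, Srgap2 and Srgap3 encode srGAP proteins, which were found as partners of Robo receptors. The inverse F-BAR domains of the proteins from Srgap2 and Srgap3 favour outward protrusions of the membrane. Srgap2, listed as ENSRNOG00000006733, had 17 and 24 counts in controls 1 and 2, 9 for clone A and 10 for clone B. Both clones lay below both controls after normalization, as they did for 21.5% of all tested genes. The levels were 253 ± 28.8 CPM in the controls and 109 ± 6.59 CPM in the clones (SD, n = 2 each). The log2 fold change was -1.19 with a standard error of 0.48 and a 95% interval of -2.20 to -0.18. In edgeR's quasi-likelihood test, the unadjusted p was 0.0232 and the adjusted p was 0.224, so that Srgap2 missed the threshold of 0.05 after adjustment. Over the 9 alternatives that gave a value, its adjusted p lay between 0.208 and 0.919. In GRCr8, a long non-coding RNA gene and a pseudogene overlap Srgap2, and reads of overlapping genes are uncertain in these counts. Srgap1 had 0 counts in 3 libraries and 2 counts in clone B. Srgap3 had 1 and 2 counts in the control libraries, 3 for clone A and 0 for clone B. Neither gene allowed a comparison at this depth.

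Pacsin2 and Pacsin3, also called syndapins, bind dynamin and N-WASP, and Pacsin2 is known for shaping caveolae. Pacsin2, listed as ENSRNOG00000009756, had 8 and 12 counts in the control libraries, 9 for clone A and 6 for clone B. Its levels were 122 ± 8.71 CPM in the controls and 86.1 ± 25.5 CPM in the clones (SD, n = 2 each). Both clones lay below both controls, which was so for 21.5% of all tested genes. The log2 fold change of -0.49 had a standard error of 0.68 and a 95% interval of -1.92 to 0.94 (adjusted p = 0.835 by edgeR), which leaves room for a decrease of more than 2-fold as well as for an increase. Pacsin3 had 3 and 7 counts in the control libraries, 0 for clone A and 3 for clone B. The pooled ratio of clones to controls was 0.284 (95% exact interval 0.0503 to 1.10). Fcho2, which acts at the start of clathrin-coated pits, had 1 count in every library and allowed no comparison.

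With a change of at least 2-fold and an adjusted p of 0.05 or less as the criterion, neither of the 2 tested members other than Gas7 was called by edgeR or by DESeq2, against 3.61% of all tested genes by edgeR. By the unadjusted p and the same fold, edgeR called 1 of them, Srgap2, against 11.6% of all tested genes, and DESeq2 called 0. With 2 genes tested, these counts cannot be set apart from the background. Without Gas7, the other 9 members had 35 and 52 counts in sum in the control libraries, 29 in clone A and 26 in clone B, which corresponded to 562 and 503 CPM against 335 and 295 CPM. Their ratio of clones to controls was 0.599 (95% exact interval 0.420 to 0.850). Without Srgap2 the sums were 289 and 271 CPM against 231 and 181 CPM, with a ratio of 0.742 (95% exact interval 0.466 to 1.17). The controls varied among themselves by 2.09 times the variance of counting alone and the clones by 2.02 times (chi-square per degree of freedom), so that these intervals are too narrow for a difference between conditions.

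**Figure D3:**
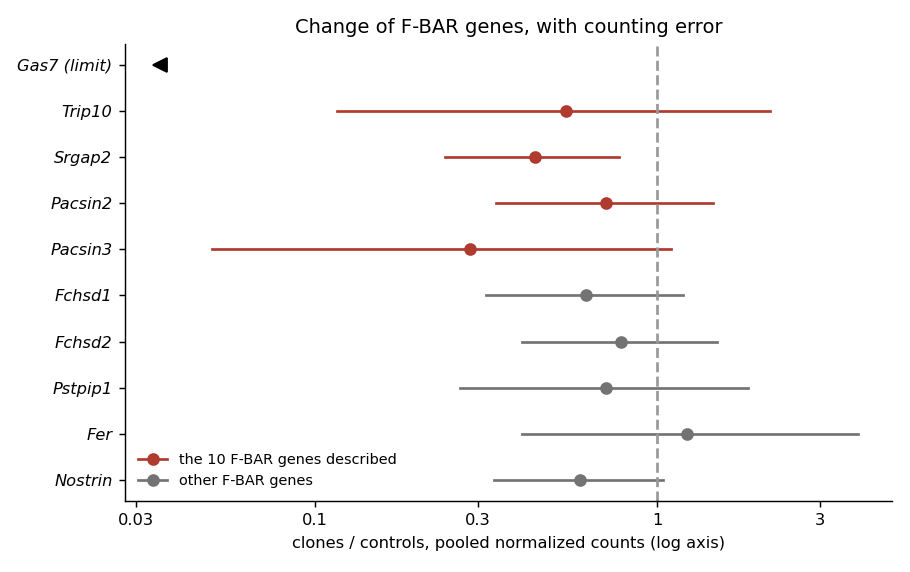
Ratio of pooled normalized counts in the clones to those in the controls for the F-BAR genes with more than 3 counts in at least 1 library and counts in both groups, on a log axis, with 95% exact intervals for counting error as lines. The arrow marks the limit for Gas7, and the interval of Srgap2, from 0.241 to 0.774, is the one that does not include 1.

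The family has further members. Of 14 symbols of other F-BAR genes, 13 were listed, 8 had a count and 3 could be tested. None of the 3 was called by edgeR with or without adjustment, and DESeq2's adjusted p missed the threshold as well. Over all tested genes, edgeR called 3.61% with adjustment and 11.6% without, and 3 genes are too few to be set apart from these shares. Fchsd1, a homologue of the fly gene nervous wreck, had 9 and 17 counts in the controls against 11 for clone A and 6 for clone B, and its log2 fold change was -0.67 (standard error 0.59), with an adjusted p of 0.707 by the quasi-likelihood method of edgeR. Fchsd2, which promotes actin assembly at clathrin-coated pits, had 6 and 17 counts against 8 and 11, and its log2 fold change was -0.31 (standard error 0.60). Without control 2 its log2 fold change was 0.15. Fchsd1 and Fchsd2 each overlap another protein-coding gene and had more deposited counts than their authors' means give, so that their values are uncertain. Nostrin, which directs the trafficking of endothelial nitric oxide synthase, had 5 and 30 counts against 6 and 16, and its log2 fold change was -0.65 (standard error 0.61), which became 0.616 without control 2. Pstpip2, which binds PEST-type phosphatases, was at 0 counts in all 4 libraries, and so were Fcho1, Fes, Arhgap4 and Arhgap29. At this depth the deposited counts say nothing about them. For Pstpip2 the authors' mean is 116, and for Arhgap4 it is 122. The study names Pstpip2 among its candidate targets of Sox10 in oligodendrocyte precursor cells. Those candidates were taken from genes that the authors found lowered after Sox10 inactivation in OLN93 cells and that had Sox10 binding nearby.

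The proteins with which F-BAR proteins act were examined through lists of genes. Of 25 listed genes for WASP, WAVE and Arp2/3 proteins, which drive the branching of actin filaments, 13 were tested, and 1 was called lower and 0 higher. Over all tested genes, 2.5% were called lower and 1.11% higher. The gene called was Wipf1, which encodes the WASP-interacting protein WIP, a partner that stabilizes WASP and N-WASP. Wipf1 had 23 and 31 counts in the control libraries, 8 for clone A and 10 for clone B. Its levels were 335 ± 49.0 CPM in the controls and 103 ± 14.8 CPM in the clones (SD, n = 2 each). They did not overlap, and both clones lay below both controls for 21.5% of all tested genes. The log2 fold change was -1.67 with a standard error of 0.45 and an adjusted p of 0.0468 by the quasi-likelihood method of edgeR. This call was close to the threshold and was lost in 8 of 9 alternatives, among them each of the 4 fits that left out a library. Those fits hold a single library in 1 group, which is assumed to vary like the other group. Over the 9 alternatives the log2 fold change lay between -1.85 and -1.52. Over the alternatives the adjusted p from edgeR or DESeq2 ranged from 0.0341 to 0.409, while Wipf1 was lower in the clones in all 9. For Cyfip1 of the WAVE complex the log2 fold change was -0.44 (standard error 0.28), and for the Arp2/3 subunit gene Arpc1b it was 0.65 (standard error 0.30, unadjusted p = 0.0426, adjusted p = 0.312 from the same test). The 13 genes had a median of -0.07 for their log2 fold changes, beside -0.006 for all tested genes.

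None of the genes in 3 further lists was called. For dynamin and clathrin-dependent endocytosis 17 of 29 listed genes were tested, and their log2 fold changes had a median of 0.14. For other genes with BAR domains 5 of 22 were tested, with a median of -0.02 and a range from -0.80 to 0.99. By the unadjusted p with at least 2-fold change edgeR called 0 genes in both of these lists, and DESeq2 called 0 after adjustment. Over all tested genes, edgeR called 11.6% by the unadjusted p and 3.61% after adjustment. With so few genes tested per list, the absence of calls cannot be set apart from these shares. Cltc, the clathrin heavy chain, had 51 and 60 control counts and 63 counts in each clone, and its log2 fold change was 0.07 (standard error 0.28). For Rab5c of early endosomes it was 0.30 (standard error 0.30). Mtss1 and Mtss1l, which encode proteins with an inverse BAR domain, had log2 fold changes of -0.75 and -0.80 (standard errors 0.40 and 0.46), and neither was called.

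For the Slit ligands and Robo receptors, to which srGAP proteins owe their name, 1 of 7 genes was tested. Robo1 had 22 and 19 counts in the control libraries, 4 for clone A and 11 for clone B. Its log2 fold change was -1.58 (standard error 0.57), with an unadjusted p of 0.0131 and an adjusted p of 0.160 by the quasi-likelihood method of edgeR. Its adjusted p remained above 0.05 in all 9 alternatives, between 0.0897 and 0.732. The study itself counts Robo1 among the genes lowered after Sox10 inactivation in OLN93 cells. It also names Robo1 as a candidate target of Sox10 in oligodendrocyte precursor cells. The adjusted p given here rests on far fewer reads than that comparison. Slit2 had 0 and 4 counts in the control libraries, 21 for clone A and 3 for clone B, so that a single clone held most of its counts.

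**Figure D4:**
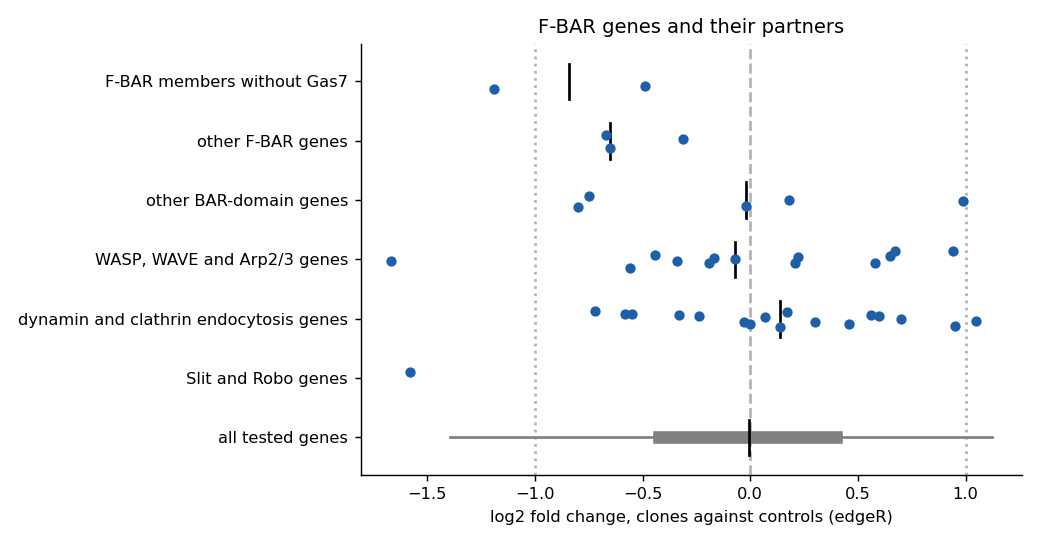
Log2 fold changes of the tested genes in each list from edgeR, with the list median as a black line, and of all tested genes as a grey bar from the 25th to the 75th percentile with a line from the 5th to the 95th. Wipf1 at -1.67, Robo1 at -1.58 and Srgap2 at -1.19 lay below the left dotted line, which marks a 2-fold decrease, and Gas7 is not plotted.

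The authors' table of mean normalized counts over all 4 libraries rests on many more reads than the counts of single libraries, but a mean over all libraries does not separate the groups and has no error. The authors' mean is 8388 for Gas7, 3675 for Srgap2, 3150 for Pacsin2, 1202 for Trip10, 1109 for Pacsin3, 1036 for Srgap3, 589 for Fcho2, 279 for Fnbp1l, 229 for Fnbp1 and 2 for Srgap1. Gas7 accounts for 42.7% of the sum of these 10 means. The order of the 5 genes with the most reads differs from that of the deposited counts in Trip10 and Pacsin3. For the 5353 genes with an authors' mean of at least 500, the mean deposited count per library was 0.384% of the authors' mean in the median. It was 0.489% for Gas7, 0.408% for Srgap2 and 0.278% for Pacsin2. Fcho2, Srgap3 and Trip10, with 0.170%, 0.145% and 0.229%, had fewer deposited counts than the median share gives. Nostrin had a mean of 14.25 deposited counts where the authors' mean is 7, and Pstpip1 a mean of 5.25 where the authors' mean is 1. These are 531 and 1370 times the median share, and Srgap1, with a mean of 0.5 deposited counts where the authors' mean is 2, stood at 65.1 times. For Nostrin and Pstpip1, the deposited counts, and with them the values for Nostrin given above, do not stand for the reads that the authors assigned to the Ensembl genes of the same name. Fchsd1 and Fchsd2 had 4.04 and 4.06 times the median share. In GRCr8, Nostrin overlaps the protein-coding gene Spc25, Fchsd1 overlaps Rell2 and Fchsd2 overlaps P2ry2, both also protein-coding, whereas Pstpip1 has no annotated neighbour within 5 kb. Whether reads of other genes entered these counts was not tested.

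**Figure D5:**
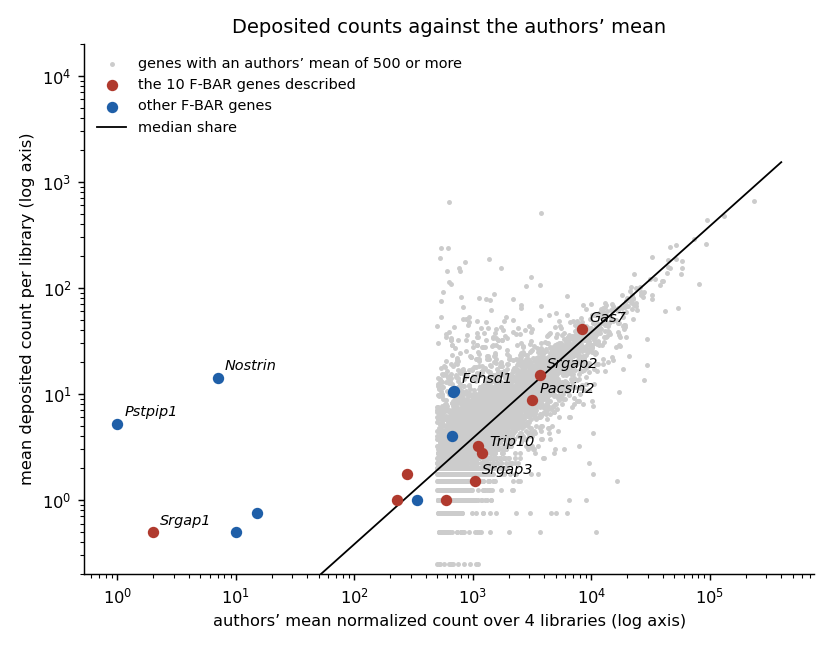
Mean deposited count per library against the authors' mean normalized count over the 4 libraries, both on log axes, for F-BAR genes (coloured) and for the genes with an authors' mean of at least 500 (grey), with the median share of 0.384% as a line. Gas7, Srgap2 and Pacsin2 lay near the line, whereas Nostrin and Pstpip1 lay far above it.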

How the data were processed

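Reads of 4 OLN93 libraries were aligned to rn5 by the authors with STAR and assigned to genes with HTSeq, and the raw counts were deposited by gene symbol. The annotation by symbol and the strand option are not stated in the sources used here. The authors' deposited table also gives a mean normalized count over all libraries, rounded and treated here as a score, and fold changes and p-values of their DESeq2 comparison, which were not used.

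Counts were tested with edgeR 4.0.16 in R 4.3.3 (filterByExpr, TMM factors on full library totals, glmQLFit, glmQLFTest, condition as the sole term), with Benjamini-Hochberg adjustment over 2438 genes. Standard errors were derived from the F statistic. The script was tested on simulated data. The floor of 3 counts corresponded to between 29.0 and 48.2 CPM. The members and lists were chosen with earlier results of these data known. Named genes are the 10 members, genes called in a list, the most and the least changed tested gene of the other F-BAR genes, up to 2 genes per list with the highest mean CPM, and the 5 genes nearest to Gas7. The genes of the other F-BAR list without counts, Pstpip1, Slit2 and the marker genes were named after their values were seen. A marker gene and a list of partner genes are not reported here. Alternatives were DESeq2 1.42.0, its size factors or library totals in edgeR, testing without a filter or with a minimum of 10 counts per library, a replicate block, and leaving out each library. Neighbouring genes came from RefSeq on GRCr8, another build than that of the counts.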

Additional observations from a re-analysis of the deposited data

How the results depend on the processing

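The number of members other than Gas7 that were called stayed at 0 under all 10 alternatives, and the Gas7 limit lay between 28.2-fold and 28.7-fold under the other scalings and between 26.2-fold and 30.4-fold when a library was left out. Srgap2 and Pacsin2 were lower in the clones under the 9 alternatives that gave a value, and with at least 10 counts in every library neither was tested. The numbers of called genes moved more. From 61 lower and 27 higher genes, DESeq2's own test gave 28 and 8, and a minimum of 10 counts per library gave 23 lower genes. No filter gave 44 higher genes. With the replicate block, 28 lower and 11 higher genes were called. The differences between same-numbered libraries had a correlation of 0.122 over the tested genes, but the libraries share no more than a number. Leaving out a library leaves a group with a single library, which is assumed to vary like the other group, and gave between 2 and 70 lower and between 0 and 39 higher genes. Without control 2 there were 2 lower and 0 higher genes, without clone A 39 and 16, and without clone B 44 and 15. The cause was not tested. With each library left out in turn, the log2 fold change of Cltc ranged from -0.205 (without control 2) to 0.289, that of Nostrin from -1.48 to 0.616 (without control 2) and that of Fchsd2 from -0.615 to 0.15 (without control 2). Of the 10 members, 7 had too few counts to be tested, and depth limits what can be said of them.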
